A study of Zea mays with 6 samples.

Results

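The plastid genes from rpoA (ZemaCp054) to rpl22 (ZemaCp062) form a run of 9 consecutive protein genes in the maize chloroplast genome. They were taken by their locus tags from the 33953 features of the deposited tables, of which 104 are plastid features. Of the 9, 7 are described here: rpoA, rpl36, infA, rpl14, rpl16, rps3 and rpl22, in gene order. Each of the 7 was above 0 FPKM in every library and reached the mean of 1 FPKM required for testing. FPKM scales the fragments of a gene by its length and by the mapped fragments of the library. The lengths used are unknown here. Differences in FPKM between genes therefore need not be differences in transcript level, in particular for very short genes such as rpl36.

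Leaf RNA of the maize inbred line KN5585 was sequenced in 6 libraries, 3 from transgenic plants engineered to make the glutamate polymer poly-γ-glutamic acid and 3 from plants of the same line labelled control. All plants were seedlings at the 3-leaf stage that had gone without water for 5 days, when the soil held 9.8% water, so both groups carried the drought. The promoter driving the transgenes, the number of transgenic events and whether leaves of several plants were pooled are unknown from the labels. The labels also leave unsaid whether each library had its own plants, and the p-values therefore cover the spread between libraries alone, which may be technical.

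Chloroplasts keep a small genome of bacterial origin, with ribosomes and an RNA polymerase of the bacterial type that are built partly from plastid genes and partly from nuclear genes. The rpl22 to rpoA genes lie in an order close to that of the S10, spc and alpha operons of Escherichia coli. In land plants they are transcribed together, in the direction from rpl22 towards rpoA, and the long RNA is then cut into shorter ones. Proteins translated on these ribosomes include core subunits of the photosystems and the large subunit of Rubisco.

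All 7 genes were higher in transgenic than in control leaves, by 1.76-fold (infA) to 8.55-fold (rpl14) as ratios of mean FPKM. None of the 7 overlapped between the groups. Of the 22200 features tested, 27.0% were called higher and 45.9% lower, and 28.0% were higher with no overlap between the groups. Among the 57 tested plastid features outside the run, copies counted once, 56.1% were called higher and 19.3% lower, and 57.9% were higher without overlap. The median log2 fold change of the 7 genes was 2.22, against 0.84 for those plastid features and -0.31 for all features tested. At 4 of the 7 the log2 fold change was 2 or more, which held with a call for 22.8% of the other plastid features and 7.56% of all features. Each fold change is the transgenic minus the control mean of log2(FPKM + 1), tested with limma across all features; a call means a Benjamini-Hochberg adjusted p below 0.05. The rest of the plastid was thus higher on the median as well. When libraries were scaled on the other plastid genes, 6 of the 7 genes remained higher (median log2 fold change 1.29 over the 7), and infA no longer passed, with a change of -0.14 (limma, adjusted p = 0.221).

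The plastid signal of the libraries differed between the groups, as did the tested features at large. Across all tested features, Pearson r on log2(FPKM + 1) was 0.972 to 0.989 within a group and 0.693 to 0.708 between groups. The labels name no batch, so differences in growth, sampling or handling between the groups cannot be told apart from the transgene. Plastid features held 0.496 to 0.570% of FPKM in transgenic and 0.193 to 0.221% in control libraries, all made from 1.3 µg of total RNA with an mRNA kit. Estimated relative depth lay between 0.960 and 1.03. The search covered only ratios near 1, so the estimate cannot show that depths were equal, and absolute depth is unknown. Of 8 plastid genes fixed as markers of green leaf, 6 were measured. Their summed FPKM was 51.5 to 64.5 in transgenic and 167 to 182 in control libraries. The lower sum in transgenic libraries rests on psbA, which encodes the D1 protein of photosystem II and stood at 0.41 to 1.85 FPKM in transgenic and 153 to 166 FPKM in control libraries. Without psbA the direction turned, with sums of 49.8 to 64.1 in transgenic and 13.8 to 16.3 FPKM in control libraries. Of the other 5 markers, psaA, psaB and petA were higher in every transgenic than in every control library, and psbB was lower in every one. Values of atpB overlapped, at 1.91, 2.57 and 0 FPKM in transgenic and 0.93, 0.1 and 0.26 FPKM in control libraries. Of 4 mitochondrial genes fixed as markers of that organelle, the 2 measured summed to 0.67 to 0.96 FPKM in transgenic and 21.3 to 24.8 FPKM in control libraries. Over all mitochondrial features the groups lay much closer, at 0.124 to 0.160% of FPKM in transgenic and 0.173 to 0.198% in control libraries. The part of these shifts, or of the capture of organelle RNA, in the results on the run was not tested. A different number of plastids or green cells and a different amount of RNA per plastid or cell cannot be told apart in such bulk samples.

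With psbA and second copies of genes included in the plastid total, the 7 genes held a larger share of it in transgenic leaves. Their summed FPKM was 1525.63, 1463.7 and 1240.85 in transgenic replicates 1 to 3, against 499.05, 442.09 and 416.97 in control replicates 1 to 3. As a share of the FPKM of all 104 plastid features this was 20.2 to 22.1% in transgenic and 17.0 to 18.7% in control libraries, and the ranges did not overlap. That total counts second copies of genes as separate features. It also holds psbA, at 0.41 to 1.85 FPKM in transgenic and 153 to 166 FPKM in control libraries. The share with copies counted once and psbA left out was not calculated. The difference in share therefore holds for this choice of total only and cannot be read as a trait of the run.

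**Figure D1:**
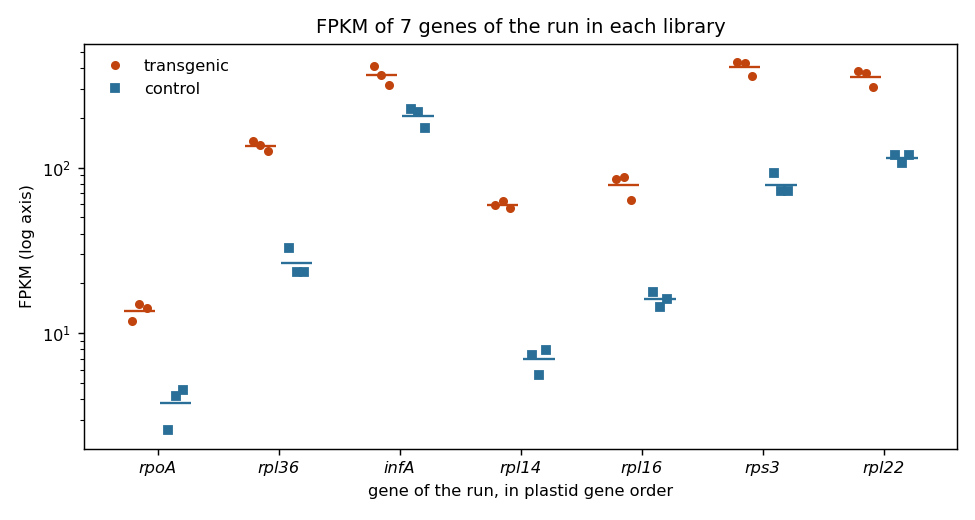
FPKM (log axis) of the 7 genes in plastid gene order, with 1 point per library (orange circles transgenic, blue squares control) and a line at the mean of 3 libraries. Every transgenic point lies above every control point of the same gene, with the narrowest gap at infA and the widest at rpl14.

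The gene rps3 encodes a protein of the small ribosomal subunit. In bacteria the S3 protein lines the channel through which mRNA enters the ribosome. Maize rps3 (ZemaCp061) had 431.92, 425.37 and 358.79 FPKM in transgenic replicates 1 to 3, against 92.67, 72.02 and 71.85 FPKM in control replicates 1 to 3. The lowest transgenic library was 3.87-fold above the highest control library. Its log2 fold change was 2.35 (SE 0.11; 95% confidence interval 2.09 to 2.61; limma, adjusted p = 1.51e-07).

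Proteins of the large ribosomal subunit are encoded by rpl14, rpl16, rpl22 and rpl36. L14 forms part of the contact between the subunits in bacteria. Its gene rpl14 (ZemaCp059) had 59.28, 62.89 and 57.15 FPKM in transgenic libraries, against 7.4, 5.61 and 7.96 FPKM in control libraries. Of the 7 genes, the groups were furthest apart at this one, the lowest transgenic library being 7.18-fold above the highest control library. The log2 fold change was 2.94 (SE 0.13; 95% confidence interval 2.64 to 3.24; limma, adjusted p = 9.49e-08).

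L16 lies near the site where tRNAs enter the bacterial ribosome, and the chloroplast gene of most land plants is split by an intron. Maize rpl16 (ZemaCp060) had 85.15, 87.48 and 63.82 FPKM in transgenic libraries, against 17.73, 14.36 and 16.01 FPKM in control libraries. Transgenic replicate 3 was the low one of its group and still 3.60-fold above the highest control library. The log2 fold change was 2.22 (SE 0.14; limma, adjusted p = 7.75e-07). Spliced and unspliced RNA cannot be told apart in these values.

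L22 lines the tunnel through which the new protein leaves the bacterial ribosome. Its gene rpl22 (ZemaCp062) had 382.32, 372.67 and 307.74 FPKM in transgenic libraries, against 118.97, 106.45 and 118.74 FPKM in control libraries. Control values were the tightest of the 7 genes, with a coefficient of variation of 6.24%, and the groups were 2.59-fold apart. The log2 fold change of 1.61 (SE 0.09; 95% confidence interval 1.41 to 1.82; limma, adjusted p = 4.32e-07) was below those of rpl14, rpl16 and rpl36. L36 is a very small zinc-binding protein, and its gene rpl36 (ZemaCp056) had 144.97, 137.03 and 125.45 FPKM in transgenic libraries, against 32.89, 23.42 and 23.54 FPKM in control libraries. Every transgenic value was at least 3.81-fold above every control value, with a log2 fold change of 2.32 (SE 0.13; limma, adjusted p = 4.58e-07).

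The gene infA encodes an initiation factor that occupies the small subunit when translation starts. Many flowering plants have moved it to the nucleus, whereas maize keeps it in the plastid. With 410.2, 363.35 and 313.76 FPKM in transgenic libraries, against 226.8, 216.06 and 174.3 FPKM in control libraries, infA (ZemaCp057) changed least of the 7. The lowest transgenic library was 1.38-fold above the highest control library. Its log2 fold change was 0.81 (SE 0.12; 95% confidence interval 0.54 to 1.09; limma, adjusted p = 0.000251), and the interval did not reach that of any other of the 7. It is also the gene of the 7 whose direction depended on the scaling, as given above.

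The last gene of the transcription unit, rpoA, encodes the alpha subunit on which the bacterial-type RNA polymerase is assembled. Maize rpoA (ZemaCp054) had 11.79, 14.91 and 14.14 FPKM in transgenic libraries, against 2.59, 4.17 and 4.57 FPKM in control libraries. It had the lowest FPKM of the 7 genes in each of the 6 libraries. The log2 fold change was 1.63 (SE 0.20; 95% confidence interval 1.18 to 2.08; limma, adjusted p = 6.77e-05), on a scale that understates changes at such levels, since the ratio of means was 3.60.

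In transgenic leaves replicate 3 was the lowest library for 6 of 7 genes, rpoA being the exception, and for 49.1% of the 57 plastid features outside the run. In control leaves the lowest library was replicate 2 for 4 of 7 genes, replicate 3 for 2 and replicate 1 for 1. Replicate 2 was also the lowest for 42.1% of the other plastid features. The coefficient of variation over replicates was larger in control than in transgenic libraries for 5 of 7 genes, rpl16 and rpl22 being the exceptions.

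Although read from a common transcription unit, the 7 genes differed widely in FPKM. The part of gene length or RNA capture in these differences was not tested. In transgenic leaves the means ran from 405 ± 40.5 FPKM (rps3) to 13.6 ± 1.63 FPKM (rpoA; SD, n = 3), a 29.8-fold span. In control leaves they ran from 206 ± 27.7 FPKM (infA) to 3.78 ± 1.05 FPKM (rpoA), a 54.5-fold span. The levels did not fall or rise steadily along the gene order in either genotype: infA was high, rpl14 and rpl16 were low, and rps3 and rpl22 were high again.

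The order of levels was rps3, infA, rpl22, rpl36, rpl16, rpl14 and rpoA in transgenic leaves. The ranges of rps3 and infA overlapped, as did those of infA and rpl22, and each later gene lay below the one before it without overlap. In control leaves the order was infA, rpl22, rps3, rpl36, rpl16, rpl14 and rpoA, with no overlap between neighbours in this order. Ranks 4 to 7 were held by rpl36, rpl16, rpl14 and rpoA in all 6 libraries. The gene ranked first was rps3 in every transgenic library and infA in every control library, where rps3 held rank 3.

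This change of order shows in the make-up of the summed signal, which does not depend on how a library is scaled. The gene infA gave 25.7 ± 1.08% of the summed FPKM of the 7 genes in transgenic leaves and 45.4 ± 3.54% in control leaves (SD, n = 3). Shares of rps3 were 28.8 ± 0.398% in transgenic and 17.4 ± 1.15% in control leaves. Those of rpl36 were 9.66 ± 0.398% in transgenic and 5.84 ± 0.669% in control leaves. The shares of 5 genes did not overlap between the groups, with 4 higher in transgenic leaves (rps3, rpl36, rpl14 and rpl16) and 1 lower (infA). Because the shares add up to the whole, a lower share of infA raises the others, and these 5 are not separate results. How often shares differ this way in other groups of plastid genes was not calculated. For each of these 5 the two-sided exact permutation test gave p = 0.1, the smallest that 3 against 3 libraries allow, and 0.14 after adjustment over the 7 genes. The shares of rpoA and rpl22 overlapped (exact permutation p = 0.6 and 1).

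**Figure D2:**
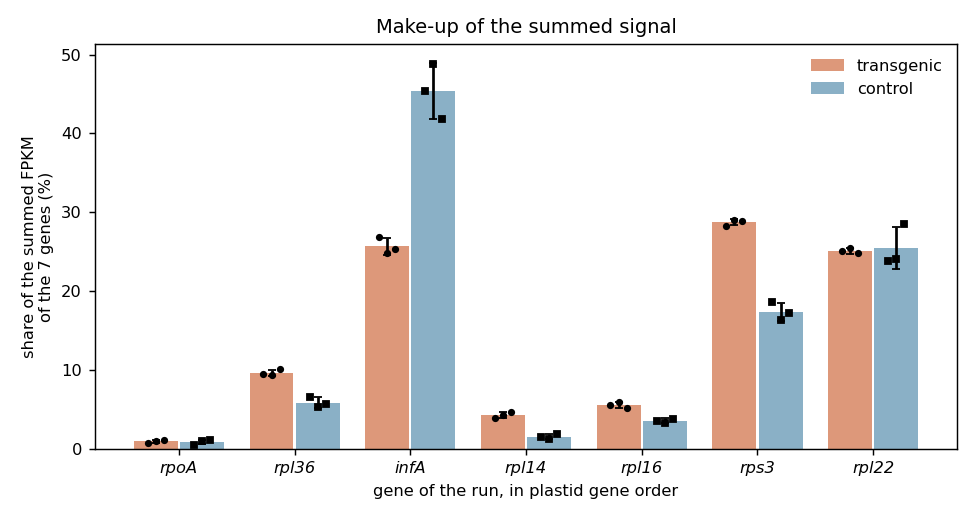
Share of each gene in the summed FPKM of the 7 genes, in percent, in plastid gene order. Bars are means of 3 libraries (orange transgenic, blue control), error bars are SD and black points are libraries; infA is the tallest bar in control leaves and rps3 in transgenic leaves.

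Whether neighbours moved by different amounts was tested on the log2 ratio of each pair within a library, for 4 neighbouring pairs within the run and the 2 pairs across its ends. Of the 4 pairs, 3 had ratios that did not overlap between the groups. How often this holds for neighbouring plastid genes outside the run was not calculated. The count therefore cannot be read as particular to the run. Of the 4 pairs within the run, the ratio that shifted most was that of rpl36 to infA. The log2 ratio of rpl36 to infA was -1.40 ± 0.09 in transgenic and -2.91 ± 0.21 in control leaves (SD, n = 3).

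Smaller shifts separated rpl14 from rpl16 (0.72, transgenic minus control) and rps3 from rpl22 (0.74). Each of these 3 shifts had an exact permutation p = 0.1, the smallest the design allows, and 0.12 after adjustment over 6 pairs. The ratio of rpl16 to rps3 overlapped between the groups, with a shift of -0.13 (exact permutation p = 0.2). With a pseudocount of 5 in place of 1 that shift was -0.31 (exact permutation p = 0.1), and that of rpl14 to rpl16 was 0.45.

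**Figure D3:**
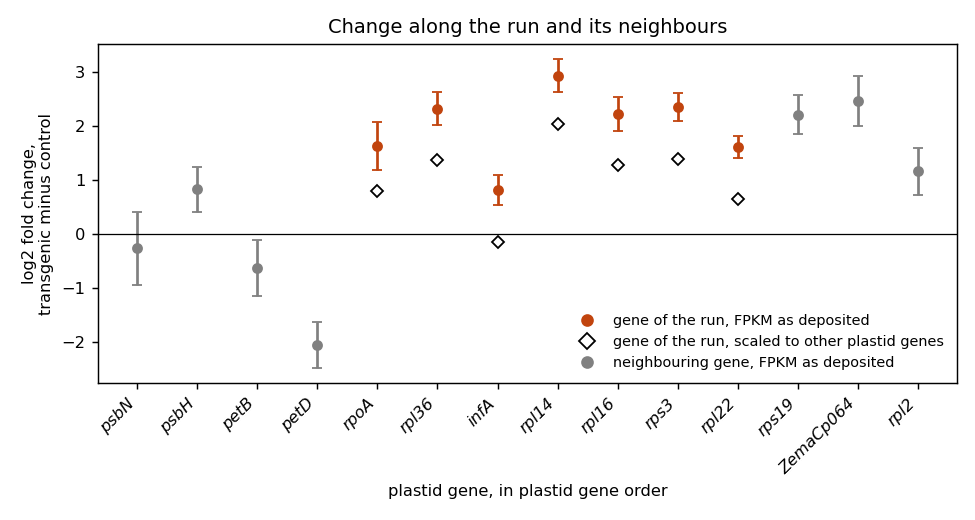
Log2 fold change (transgenic minus control, on log2(FPKM + 1)) in plastid gene order for 7 genes of the run (orange) and the tested neighbours (grey), with 95% confidence intervals from limma. Open diamonds give the same 7 after scaling on the other plastid genes, where infA falls to -0.14 and the others stay above 0; petD and rpoA, which lie next to each other, differ in direction.

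At the rpoA end the direction differed across the border of the run. The next gene, petD (ZemaCp053), encodes subunit IV of the cytochrome b6f complex. It had 7.68, 11.87 and 11.19 FPKM in transgenic libraries, against 45.07, 36.97 and 55.08 FPKM in control libraries, and fell by 2.06 on the log2 scale (limma, adjusted p = 1.09e-05). The log2 ratio of petD to rpoA was -0.39 ± 0.14 in transgenic and 3.30 ± 0.40 in control leaves (SD, n = 3; exact permutation p = 0.1). Beyond it, petB, the gene of cytochrome b6, fell by 0.64, psbH of photosystem II rose by 0.83, and psbN, at -0.27, did not pass (limma, adjusted p = 0.0304, 0.00276 and 0.441).

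At the rpl22 end the neighbours moved with the run. There rps19 (ZemaCp063), the next gene of the same transcription unit and one for a small-subunit protein, had 75.47, 77.04 and 60.09 FPKM in transgenic libraries, against 13.94, 11.91 and 18.05 FPKM in control libraries. Its log2 fold change of 2.21 (limma, adjusted p = 2.03e-06) lay within the range of the 7 genes. The reading frame ZemaCp064 rose by 2.47 and rpl2 (ZemaCp065), the gene of a large-subunit protein at the catalytic core, by 1.16 (limma, adjusted p = 5.36e-06 and 0.000495). The ratio of rpl22 to rps19 shifted by -0.60 (exact permutation p = 0.1). The frame ZemaCp066, which overlaps rpl2 in the reference gene table, was below the minimum level for testing. The genes from rps19 to rpl2 have a second copy in the plastid genome with the same FPKM in every library, so their reads cannot be assigned to either copy. No other feature had the same FPKM as any of the 7 genes in every library.

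Genes of the same names exist in the mitochondrion for 2 of the 7, at lower levels in every library. Mitochondrial rps3 (ZeamMp024) was listed at 0.04, 0.04 and 0 FPKM in transgenic and at 0.41, 1.33 and 0.83 FPKM in control libraries, below the minimum for testing. Mitochondrial rpl16 (ZeamMp057) had 3.47, 5.06 and 2.72 FPKM in transgenic and 0.39, 3.87 and 1.37 FPKM in control libraries. These overlapped, and the change of 0.88 did not pass (limma, adjusted p = 0.087).

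The other plastid genes of ribosomal proteins moved mostly in the same direction. Of 14 such genes listed, 12 were measured and tested, and the other 2 were not analysed here. Of the 12, 10 rose, 1 fell and 1, rpl20, stayed short of the threshold at 0.31 (limma, adjusted p = 0.326). Among all tested plastid features outside the run, these 12 included, 56.1% were called higher, against 27.0% of all tested features. The list is not separate from the run, since it holds rps19 of the same transcription unit and the nearby rpl2. The median log2 fold change of the 12 was 1.80, against 2.22 over the 7 genes. The largest rises were those of rps14, rps4 and rps19, by 4.01, 2.63 and 2.21. The gene that fell was rps16, at 13.86, 13.47 and 8.23 FPKM in transgenic libraries, against 29.38, 24.89 and 27.95 FPKM in control libraries (log2 fold change -1.17; limma, adjusted p = 0.000407). It encodes a small-subunit protein like rps3. Of the summed FPKM of the 17 plastid ribosomal protein genes described here, the 5 in the run held 50.5 to 52.4% in transgenic libraries and 44.2 to 46.3% in control libraries.

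**Figure D4:**
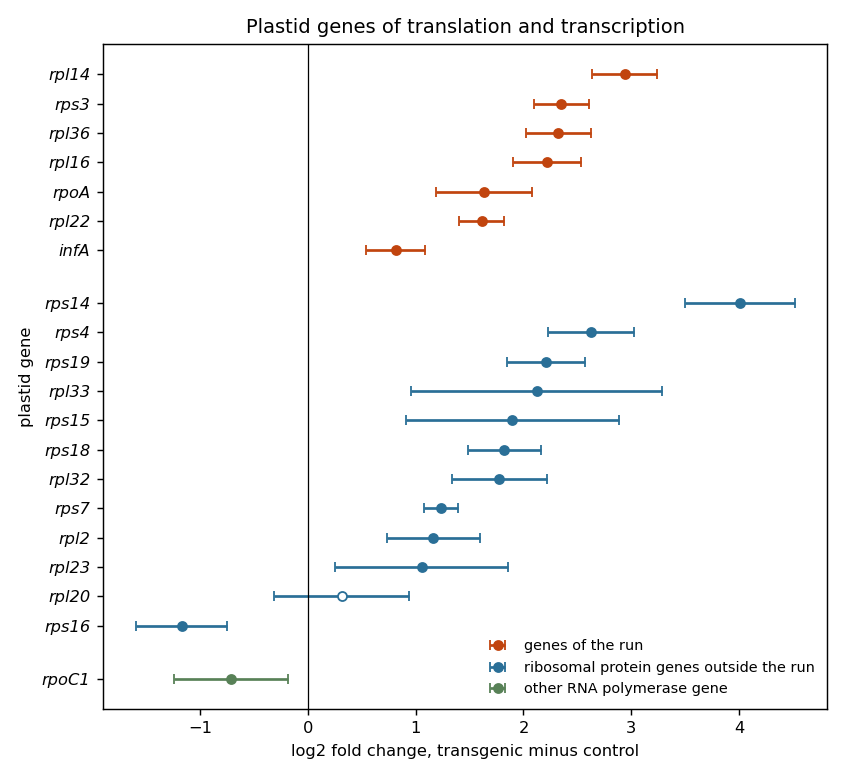
Log2 fold change (transgenic minus control) with 95% confidence intervals from limma for 7 genes of the run (orange), 12 plastid ribosomal protein genes outside the run (blue) and rpoC1 (green). Filled points passed the threshold. The open point, rpl20, did not, and rps16 and rpoC1 lie below 0. The gene rpoC1 reached the level for testing through the control libraries alone.

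The other 3 genes of the plastid-encoded RNA polymerase were low in both genotypes. They encode its beta-type subunits, which form the catalytic centre. Only rpoC1 (ZemaCp014) reached the minimum for testing, and it did so through the control libraries alone. It had 0.68, 0.35 and 0.58 FPKM in transgenic libraries (mean 0.537), against 1.69, 1.03 and 1.91 FPKM in control libraries (mean 1.54). Its log2 fold change was -0.72 (limma, adjusted p = 0.0207). Because the filter admitted it through the group where it was higher, this call is no support for a fall. Leaving out transgenic replicate 2 ended that call. The ranges of rpoB overlapped, with 0.29 to 0.36 FPKM in transgenic and 0.19 to 0.67 FPKM in control libraries, and rpoC2 was listed at 0 in all 6, so neither gives a direction.

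The plastid features outside the run whose log2 profile over the 6 libraries was closest to the mean of the 7 genes were atpF, ndhK, psaA, ndhC and rps7, with a Pearson r of 0.9968 to 0.9996. The 6 libraries fall into 2 groups that lie far apart in each of these genes, and the coefficients carry no test. Their levels and changes were unlike each other. The ATP synthase gene atpF (ZemaCp019) averaged 536 ± 61.4 FPKM in transgenic and 75.7 ± 8.86 FPKM in control leaves, and the photosystem I gene psaA (ZemaCp023) 39.7 ± 5.07 and 4.20 ± 0.546 FPKM in transgenic and control leaves (SD, n = 3).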

How the data were processed

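The deposited values are FPKM, calculated by the authors for 1 library per file and given to 2 decimals, per the file headers. The sources used here give no aligner, counter, annotation or strand setting, so antisense reads cannot be told apart. The submitters' processing notes name only mouse builds, GRCm38 and mm10, so no coordinates or lengths are given. Symbols and gene order came from the RefSeq gene table of Zm-B73-REFERENCE-NAM-5.0, by locus tag. It matched all 104 plastid and 147 mitochondrial IDs and 0 of 33702 nuclear IDs, so that nuclear genes of plastid ribosomes, sigma factors and RNA processing, and nuclear leaf markers, were not analysed here.

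Features whose mean FPKM reached 1 were tested on log2(FPKM + 1) with limma 3.58.1 in R 4.3.3 (lmFit, eBayes with trend), two-sided, with Benjamini-Hochberg adjustment over all 22200 features and a threshold of 0.05. Of these, 5996 were higher and 10199 lower, or 63.0% lower among calls, against 48.5% with median-of-ratios scaling, 54.0% with quantile normalization and 84.2% when scaled on plastid genes. Median-of-ratios scaling moved the median of all features to 0.04, and scaling on plastid genes to -1.15. The limma procedure was run on simulated data in which few features changed. That setting is unlike these data, so the run does not bear on the choice of scaling. Relative depth was estimated from the commonest ratio of low values between libraries, searched over ratios near 1 only. Values rounded to 2 decimals favour equal ratios in such a search. Counts were not used, so no counting intervals are given.

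Groups and replicate numbers came from the labels. Pairs of neighbours and shares were compared with exact permutation tests (scipy 1.17.1). The run has 9 genes, of which 2 are not reported here; sums, shares, ranks and medians cover the other 7. Named were these 7, 4 neighbours on each side, up to 3 genes per list and direction with the largest change, and the 5 plastid features most alike, besides rpl20, rpoB, rpoC2, atpB, psbA and the mitochondrial namesakes, which were named after their values were seen. The pairs across the ends and the shares were also added then. The members and lists were chosen with earlier results of these data known.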

Additional observations from a re-analysis of the deposited data

How the results depend on the processing

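Of 112 log2 fold changes of the 7 genes under 16 alternatives (scalings, pseudocounts, filters, variance model, replicate block and left-out libraries), 111 kept their direction and their call. The filters, the variance model and the replicate block leave the fold change itself as it is, so there only the call could change. The exception among the 112 was infA, at -0.14 when libraries were scaled on plastid genes outside the run (limma, adjusted p = 0.221). The cause was not tested. Under that scaling 2916 features were higher and 15572 lower in transgenic leaves, against 5996 and 10199 with FPKM as deposited. With 1 library left out, all 7 genes stayed higher, and the change of infA lay between 0.70 and 0.91. The lower value of rpoC1 was not called without transgenic replicate 2, which left 0 lower polymerase genes, against 0 to 1 over the libraries left out. This gene had too low a level for testing in several other settings. The shifts of the 6 pair ratios kept their direction with a pseudocount of 0.1 or 5 and with 1 library left out, but some moved by over 1.5 times. That of rpl16 to rps3 lay between -0.18 and -0.07 over the libraries left out, the smallest being -0.07 without control replicate 3 and -0.08 without transgenic replicate 3, and it was -0.08 at a pseudocount of 0.1. At a pseudocount of 5 it was -0.31, that of rpl14 to rpl16 was 0.45 and that of rpl22 to rps19 was -0.37. With 1 library left out the exact permutation test cannot go below p = 0.2. With the replicate number as a block, all 7 genes were higher, and 5935 features were higher and 10087 lower. Between libraries that share a number, deviations from the group means had correlations of 0.00588, -0.000758 and 0.0151, and the numbers were treated as names only. The absolute depth behind the FPKM is unknown, which limits what can be said of rpoA, rpoB and rpoC1 at their low levels.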
